A study of Mus musculus with 15 samples.

Results

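The spread of cardiac gene expression between mice of the same strain label was measured over all 15 arrays of the series, 5 for each of 3 labels. The inbred strains were C57Bl/6 (C57BL/6J) and C3H (C3H/HeJ), and the hybrid B6C3F1 (B6C3F1/J) is their first-generation cross. All mice were untreated males of 9 to 10 weeks. Each had carried an abdominal radiotelemetry transmitter since surgery under tribromoethanol at 7 weeks of age, and all were killed with CO2. RNA came from a piece of the heart apex, and 50 ng of it went through 2 rounds of labelling on an Affymetrix whole-genome mouse array. By its label, every array holds RNA of a different mouse. No array was chosen by its values: the within-strain standard deviation (SD) of the log2 signal was taken for each probe set over the 5 arrays of each label. Of 45032 probe sets that are not controls, 13226 had a mean log2 signal of 8 or more, and these stand for 8163 genes with 1 symbol each.

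Mice of one inbred strain carry nearly the same genome, and so do the mice of a first-generation cross between 2 inbred strains, although there each mouse holds both parental copies of a gene. Differences between mice of one label can arise in the living animal (feeding, time of day, stress, heart load), at death, in which cells the tissue piece holds, and in the labelling and hybridisation. With 1 array per mouse these sources cannot be told apart. In such bulk RNA, more cells of a type and more RNA per cell cannot be told apart either.

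The 2% trimmed mean was close to 500 on every array (500.26 to 500.28), no 2 arrays held identical values, and the mean correlation of an array with the others of its label ran from 0.968 to 0.983 over the 13226 probe sets. The tissue label matched its markers: 6 of 6 cardiomyocyte markers had a mean log2 signal between 15.44 and 16.19. Of the markers fixed for other cells, 1 of 3 atrial genes (Myl4, 8.64), 1 of 2 measured red cell genes (Alas2, 10.70) and 2 of 3 mesothelial genes (Upk3b and Krt19) reached a mean of 8. None of the adipocyte, skeletal muscle, neutrophil, lymphocyte or Schwann cell markers measured did as a mean over 15 arrays. Single arrays went higher: the neutrophil gene S100a8 ran from 5.30 to 10.66, S100a9 from 3.80 to 9.98, and the immunoglobulin gene Ighm reached 10.05. The summed linear signal of the 3 neutrophil markers ran from 88.9 to 636 in B6C3F1, 262 to 729 in C3H and 217 to 2641 in C57Bl/6. Poly-A control RNA had an SD of 0.13 over the B6C3F1 arrays, 0.80 over C3H and 0.57 over C57Bl/6, with 1 bright C3H array (replicate 4, log2 12.48) and 1 dim C57Bl/6 array (replicate 5, 9.25). With that signal regressed out within strains, the difference in array deviation between B6C3F1 and C57Bl/6 described next was 0.000956, of opposite sign, and 16 of the 25 most variable genes stayed among the top 25.

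The spread was smallest in the hybrid by a narrow margin. The median SD over the 13226 probe sets was 0.186 in B6C3F1, 0.194 in C57Bl/6 and 0.221 in C3H, on the log2 scale. With the poly-A signal regressed out the medians were 0.194, 0.191 and 0.205, with C57Bl/6 lowest. Without that regression, the B6C3F1 SD was below the C3H SD in 62.1% of probe sets and below the C57Bl/6 SD in 53.6%. The lowest of the 3 SDs fell in B6C3F1 for 41.1% of probe sets, in C57Bl/6 for 35.3% and in C3H for 23.6%. The spread changed more with signal than with strain. Between a mean of 4 and 6 the median SD was 1.10 in B6C3F1, 1.07 in C3H and 1.11 in C57Bl/6, and between 12 and 14 it was 0.140, 0.182 and 0.146. Above 14, the order turned, with 0.171 in B6C3F1, 0.153 in C3H and 0.151 in C57Bl/6 over 490 probe sets. The SDs of 2 strains had a Spearman correlation between 0.40 and 0.44 across probe sets, which share their arrays and are not independent.

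**Figure D1:**
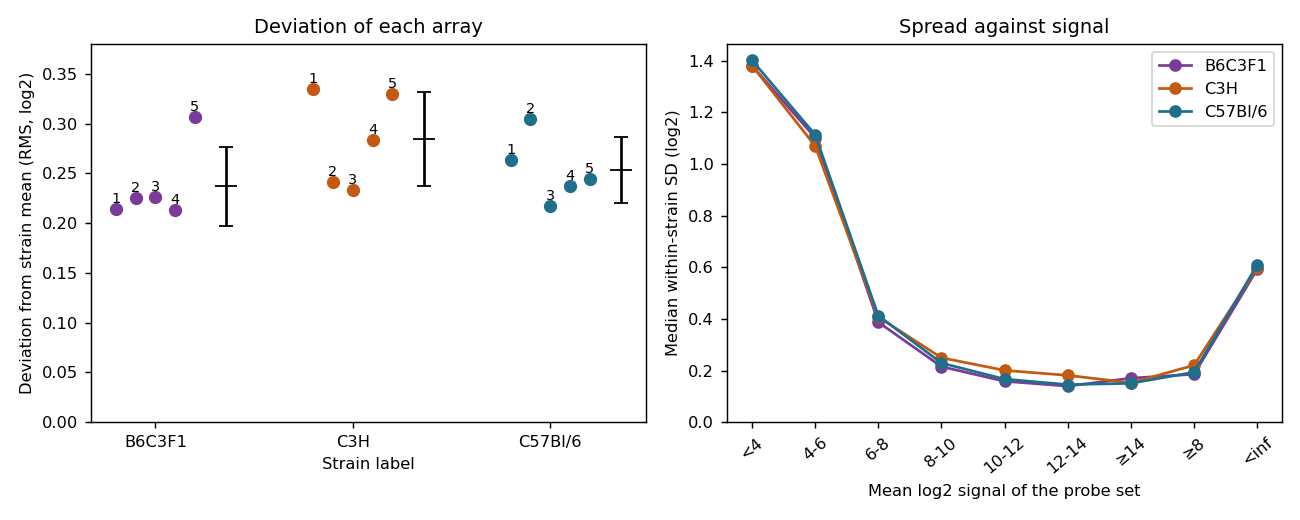
Left, the deviation of each array from its strain mean (root mean square over 13226 probe sets, log2), with replicate numbers beside the points and the mean ± SD of 5 arrays beside each group. Right, the median within-strain SD of the probe sets in each class of mean log2 signal. B6C3F1 replicate 5 lies at 0.307, above the other B6C3F1 arrays (0.213 to 0.227), and the 3 lines lie close together in each signal class.

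Each array was summarised by its deviation, the root mean square over the 13226 probe sets of its difference from the strain mean, scaled for the 5 arrays that make that mean. The B6C3F1 arrays stood at 0.214, 0.225, 0.227, 0.213 and 0.307 in replicate order. The C3H arrays stood at 0.334, 0.242, 0.233, 0.284 and 0.330, and the C57Bl/6 arrays at 0.263, 0.305, 0.217, 0.238 and 0.244. The groups overlapped, since replicate 5 of B6C3F1 was above 3 C3H arrays and all C57Bl/6 arrays. The means were 0.237 ± 0.040 (SD, n = 5), 0.285 ± 0.048 and 0.253 ± 0.033. No comparison passed a two-sided exact permutation test over arrays. The hybrid differed by -0.03 from both inbred strains (p = 0.180, adjusted over 4 comparisons 0.361), by -0.05 from C3H (exact p = 0.111, adjusted 0.361) and by -0.02 from C57Bl/6 (exact p = 0.468, adjusted 0.468). C3H differed by 0.03 from C57Bl/6 (exact p = 0.278, adjusted 0.370). Without B6C3F1 replicate 5 the 3 hybrid differences were -0.06, -0.07 and -0.04 (exact permutation, adjusted p = 0.0317 for each), so that 1 array decides these calls. Without C57Bl/6 replicate 2 the difference between B6C3F1 and C57Bl/6 was 0.0019 and had the opposite sign.

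Single genes gave little more. The absolute deviations from the strain mean were compared between strains in 1 limma fit over the 13226 probe sets, with Benjamini-Hochberg adjustment and a threshold of 0.05. For the hybrid against the mean of both inbred strains, 0 probe sets passed in either direction (0%), with 319 higher and 745 lower at an unadjusted p under 0.05. Against C3H the count was also 0, with 263 higher and 1083 lower unadjusted, and against C57Bl/6 it was 0, with 329 higher and 594 lower. Of these unadjusted calls, more were lower than higher in the hybrid. With the poly-A signal regressed out, this excess remained against C3H (437 higher, 608 lower) and was nearly gone against C57Bl/6 (456 and 462). Against both inbred strains it turned round (545 higher, 470 lower). The smallest adjusted p values from limma were 0.110, 0.0744 and 0.350. In C3H against C57Bl/6, 2 probe sets had a larger spread in C3H (0.0151%) and 1 a smaller one (0.00756%), beside 867 and 390 unadjusted. In simulated data the same test found 2.99% of genes given a 2-fold larger SD in the hybrid, 19.4% of those given a 4-fold one and 45.5% of those given an 8-fold one. For C3H minus C57Bl/6 those shares were 1.49%, 5.97% and 25.8%. Most changes of spread of these sizes were thus not detectable with 5 arrays a strain. Each simulation also called 4 unchanged probe sets, beside the 3 calls for C3H against C57Bl/6 in the real data. The simulated noise was drawn independently for each probe set, without deviations shared over an array. The counts also moved with single arrays. For the hybrid against both inbred strains, 2 probe sets passed without B6C3F1 replicate 1, 1 without B6C3F1 replicate 5, 3, 9 and 4 without C3H replicate 1, 3 and 4, and 5 and 6 without C57Bl/6 replicate 3 and 5. Against C3H, 1 passed without B6C3F1 replicate 2, 48, 8, 127, 30 and 3 without C3H replicate 1, 2, 3, 4 and 5, and 1, 1 and 6 without C57Bl/6 replicate 1, 4 and 5. Against C57Bl/6, 1 and 2 passed without B6C3F1 replicate 1 and 5, and 14 and 1 without C57Bl/6 replicate 3 and 4.

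The probe sets that passed between C3H and C57Bl/6 belong to Tob1, an antiproliferative regulator of mRNA decay, Lingo3, a leucine-rich repeat membrane protein, and Dtx3, a ubiquitin ligase of the Deltex family. Tob1 stood at log2 9.72, 10.77, 10.79, 10.85 and 9.57 on the C3H arrays and between 10.37 and 10.66 on the C57Bl/6 arrays. Replicates 1 and 5 of C3H were thus low while the other 3 lay together above them. Its SD was 0.64 in C3H, 0.13 in C57Bl/6 and 0.21 in B6C3F1 (adjusted p = 0.0197, limma). Lingo3 was high on C3H replicates 2 and 5 (9.91 and 9.90) and low on the other 3 (8.83 to 8.99), with an SD of 0.54 against 0.10 in C57Bl/6 (adjusted p = 0.0496, limma). Dtx3 stood at 6.40, 8.64, 6.90, 8.45 and 8.17 on the C57Bl/6 arrays and between 8.39 and 8.78 on the C3H arrays (SD 1.00 against 0.14, adjusted p = 0.0496, limma). Its 2 low values are on C57Bl/6 replicates 1 and 3. The count of 3 fell to 0 without B6C3F1 replicate 4 and to 1 without B6C3F1 replicate 2, 3 or 5 or C3H replicate 5, and rose to 24, 57, 16 and 5 without C3H replicate 1, C3H replicate 3, C57Bl/6 replicate 3 and C57Bl/6 replicate 4. It was also 1 under 9 and 0 under 3 of the other processing alternatives.

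A small set of genes varied within all 3 labels. An SD of 0.5 or more in each strain was reached by 18 of 8163 genes (0.221%), and by 47 of 13226 probe sets (0.355%). At the edge of that limit, Btbd3 had a smallest strain SD of 0.504 and Ank3 of 0.498. The 25 genes with the largest smallest SD are, from the top, Hspa1b, Hspa1a, Zbtb16, Cox8b, Prrc2a, Adm, Hbb-b2, Gm9222, Uqcr10, Ano1, Timp4, Cryl1, Fcer1g, Pfdn5, Snord104, Per1, Nrip2, Btbd3, Ank3, Bcam, Bcl6b, Rusc2, Tnpo1, Shmt1 and Casp12. They were chosen for their spread, so their SDs are a description with no test.

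The inducible heat shock proteins led the list. Hspa1a and Hspa1b encode the stress-inducible forms of Hsp70, a chaperone that binds unfolded protein. Heat shock factor 1 switches both genes on within minutes of heat, ischaemia or other protein damage. On the B6C3F1 arrays Hspa1b stood at log2 9.50, 9.46, 8.16, 11.96 and 14.43. It stood at 12.30, 9.64, 10.10, 11.19 and 9.21 on the C3H arrays and at 8.80, 14.13, 9.81, 9.60 and 9.83 on the C57Bl/6 arrays. One array of each label was the highest, replicate 5 of B6C3F1, replicate 1 of C3H and replicate 2 of C57Bl/6, and B6C3F1 replicate 4 and C3H replicate 4 came next in their groups. The SDs were 2.50, 1.25 and 2.11 in B6C3F1, C3H and C57Bl/6, and 2 further probe sets of the gene gave 2.38, 1.09 and 1.87 and 2.55, 1.14 and 2.08. Hspa1a had its peaks on the same 3 arrays (12.20, 10.99 and 12.40), with SDs of 1.89, 1.14 and 1.68. The strain means of Hspa1b were 10.70, 10.48 and 10.44, far closer together than the mice within any strain.

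Hspa1a and Hspa1b lie side by side and are near-identical copies, so that probes of one can take up the RNA of the other and the split between both is uncertain. Their upstream bases are shown because they show how alike the copies are where transcription starts. The 250 bases before each gene start (RefSeq, GRCm38.p6, minus strand, chr17:34959239-34959488 for Hspa1b and chr17:34972157-34972406 for Hspa1a) were identical at 247 positions (98.8%). Capitals mark the heat shock motif GAANNTTC, searched on both strands and found once in each, at position -104 from the start.
Hspa1b: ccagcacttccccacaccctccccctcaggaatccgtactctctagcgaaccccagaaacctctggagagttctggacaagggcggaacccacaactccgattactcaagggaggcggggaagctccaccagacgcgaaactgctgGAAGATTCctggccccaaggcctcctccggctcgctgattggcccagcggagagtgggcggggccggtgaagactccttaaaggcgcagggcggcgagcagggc
Hspa1a: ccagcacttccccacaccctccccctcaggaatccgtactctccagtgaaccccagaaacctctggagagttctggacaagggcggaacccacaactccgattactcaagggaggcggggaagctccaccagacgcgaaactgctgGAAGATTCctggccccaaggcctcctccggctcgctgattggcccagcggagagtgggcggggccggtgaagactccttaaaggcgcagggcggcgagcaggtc
The motif was in the same 250-base window of 6.7% of all 32851 promoters listed, and of 7 of 17 matched genes of the heat shock list (41.2%), against 7.7% of all 27025 listed genes and 6.1% of those at the signal minimum. The listed promoters of the co-chaperone gene Dnajb1 did not hold it. Of the 25 most variable genes, 19 had a listed promoter and 3 held the motif (15.8%). A match is a description of these letters, not a measured binding site.

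Other heat shock genes peaked on the same arrays, with smaller ranges. Of 20 heat shock genes at the signal minimum, 15 were highest on replicate 5 within B6C3F1, 12 on replicate 1 within C3H and 14 on replicate 2 within C57Bl/6, while 27.3%, 25.8% and 24.8% of all 8163 genes were highest there. Dnajb1, a co-chaperone of Hsp70, stood at 11.27, 11.05, 10.76, 11.77 and 13.26 on the B6C3F1 arrays, at 11.62, 11.02, 11.03, 11.37 and 11.60 in C3H and at 11.61, 12.60, 11.91, 11.67 and 11.68 in C57Bl/6. Dnaja1, another co-chaperone (SDs 0.85, 0.37 and 0.73), Hsph1, the nucleotide exchange factor Hsp110 (0.65, 0.24 and 0.80), and Hsp90aa1, the inducible Hsp90 (0.61, 0.38 and 0.60), were also highest on these 3 arrays. The constitutive Hspa8 had SDs of 0.13, 0.11 and 0.17, and the mitochondrial chaperonin gene Hspd1 of 0.19, 0.23 and 0.11. The list was therefore split: 6 of its 20 genes lay in the top 10% of pooled SD, while its median pooled SD was 0.20 beside 0.21 for all genes. Without the 3 peak arrays the SDs of Hspa1b were 1.59, 0.85 and 0.49 (n = 4 a strain).

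**Figure D2:**
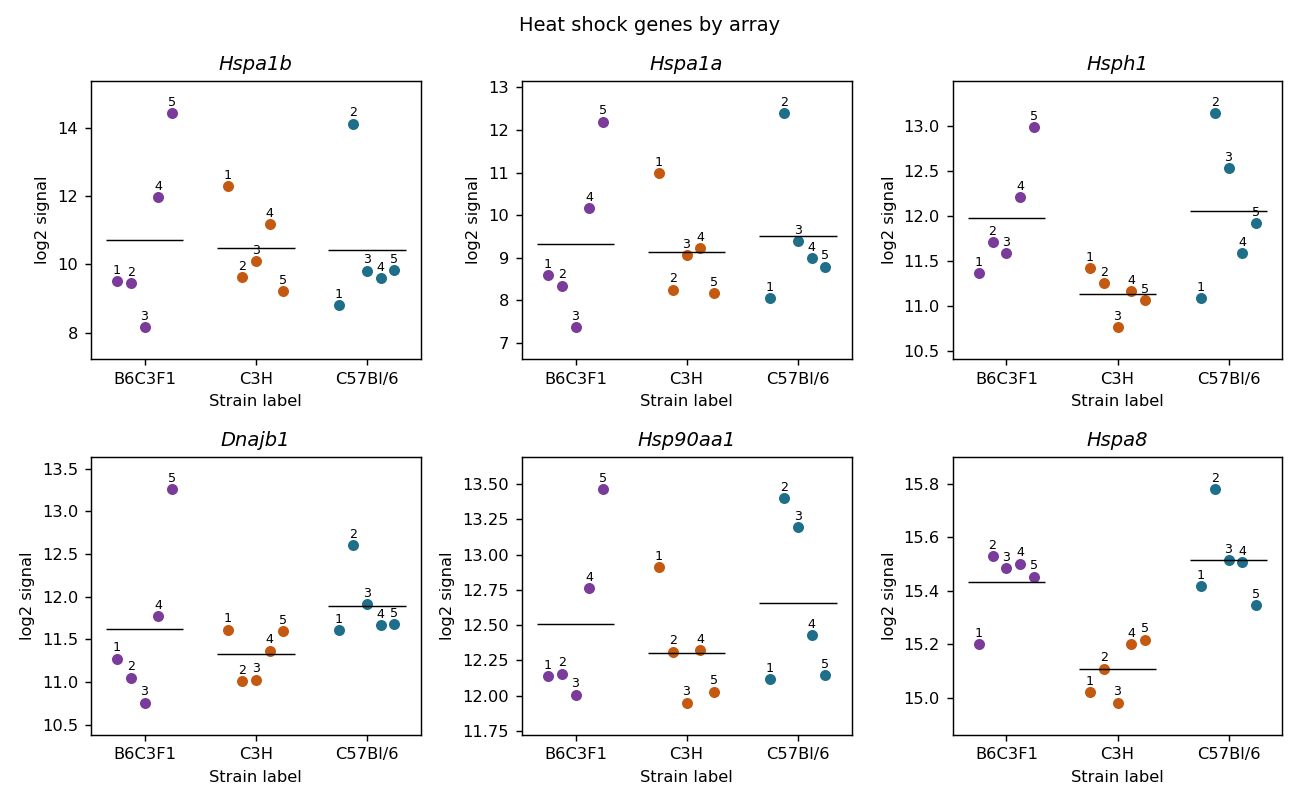
Log2 signal of 6 heat shock genes on each array (points, with replicate numbers) by strain label; lines are means of 5 arrays. Hspa1b, Hspa1a, Hsph1, Dnajb1 and Hsp90aa1 are highest within their label on B6C3F1 replicate 5, C3H replicate 1 and C57Bl/6 replicate 2, while Hspa8 stays within 14.98 to 15.78.

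The same 3 arrays stood apart in a second set of genes. Cox8b encodes a small subunit of cytochrome c oxidase. It stood at log2 14.46, 14.78, 14.59, 14.73 and 12.95 on the B6C3F1 arrays, at 12.69, 14.29, 14.43, 14.41 and 14.52 in C3H, and at 12.57, 14.44, 12.71, 12.66 and 13.16 in C57Bl/6. Over the series 6 arrays thus lay between 12.57 and 13.16 and 9 between 14.29 and 14.78, with none between. The low level held B6C3F1 replicate 5, C3H replicate 1 and all C57Bl/6 arrays but replicate 2. Uqcr10, a small subunit of complex III (11.61 to 12.15 on those 6 arrays, 12.89 to 13.51 on the other 9), Pfdn5, a prefoldin subunit (10.18 to 10.83 and 11.18 to 11.83), and Rpl37a, a ribosomal protein (12.21 to 12.49 and 13.21 to 13.65), divided the arrays in the same way. Ank3, Bcam and Pecam1 ran the other way within each label. Pecam1, an endothelial adhesion molecule, stood at 8.74 on B6C3F1 replicate 5 against 7.44 to 7.71 on the other 4, at 8.62 on C3H replicate 1 against 7.57 to 7.86, and at 7.69 on C57Bl/6 replicate 2 against 8.64 to 8.88.

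These genes were counted by the direction in which the 3 arrays differed by 0.5 or more from the mean of the other 4 of their label. The limit and the 3 arrays were chosen after the values were seen, so the counts are a description. Lower on B6C3F1 replicate 5 and C3H replicate 1 and higher on C57Bl/6 replicate 2 were 86 of 8163 genes (1.05%), the opposite held for 57 (0.698%), and higher on all 3 for 8 (0.098%), namely Hspa1b, Hspa1a, Cryl1, Hsp90aa1, Tnpo1, Slc5a3, Mt2 and Ahctf1. Lower on all 3 were 3 genes (0.0368%), with the clock repressor Nr1d1 among them, and the other 4 patterns held 4 (0.049%), 4 (0.049%), 2 (0.0245%) and 0 genes (0%). The 86 genes had a median genomic span of 5852 bases beside 25154 bases for all genes with a span in RefSeq and 30664 bases for the 57. The 86 include 5 of the 44 cytosolic ribosomal protein genes (Rpl and Rps) among all 8163 genes. They also include Hbb-b2, Snord104, Prrc2a, Ndufa6, Cox7a1 and Mif. The Gapdh 3 prime over 5 prime log2 ratio, a sign of RNA integrity, was 0.69 on B6C3F1 replicate 5, 0.53 on C3H replicate 1 and 1.02 on C57Bl/6 replicate 2, within the range of the other arrays of each label (0.66 to 1.13, 0.39 to 1.06 and 0.46 to 1.05). Its part in these patterns was not tested.

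**Figure D3:**
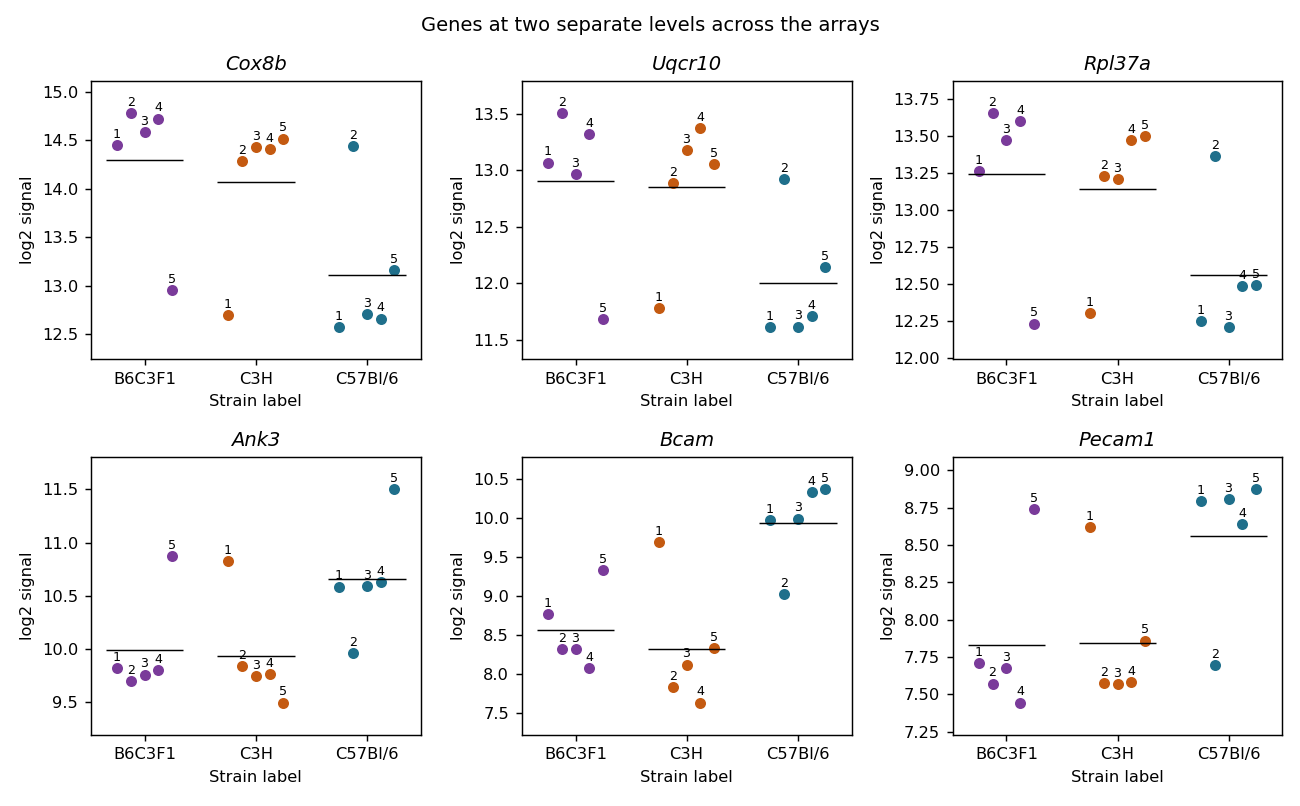
Log2 signal of 6 genes on each array (points, with replicate numbers) by strain label; lines are means of 5 arrays. Cox8b, Uqcr10 and Rpl37a are low on B6C3F1 replicate 5, C3H replicate 1 and 4 C57Bl/6 arrays and high elsewhere, while Pecam1, Bcam and Ank3 run the other way within each label.

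These arrays also carry much of the deviation. Each is the highest of its label (0.307, 0.334 and 0.305). With all 3 left out, a choice made after seeing the data, the mean deviation was 0.213 in B6C3F1, 0.269 in C3H and 0.236 in C57Bl/6 (n = 4 each). The hybrid then differed by -0.04 from both inbred strains together, by -0.06 from C3H and by -0.02 from C57Bl/6 (exact permutation, adjusted p = 0.0381 for each). The arrays left out were those of highest deviation, so these p-values are no independent test. The limma test of spread then gave 12 probe sets for the hybrid against both inbred strains (3 higher, 9 lower), 90 against C3H (8 higher, 82 lower), 8 against C57Bl/6 (3 higher, 5 lower) and 61 for C3H against C57Bl/6. Of the 25 most variable genes, 12 stayed among the top 25. Cox8b fell to a smallest SD of 0.10 and place 4615, and Ank3 to 0.05 and place 7087, while Zbtb16 came first with 0.98, 1.51 and 0.89.

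Zbtb16, a zinc-finger repressor that glucocorticoids induce, was the most variable gene outside those patterns. It stood at log2 7.70, 9.94, 8.15, 8.94 and 9.30 on the B6C3F1 arrays, at 10.60, 8.51, 10.62, 11.54 and 8.59 in C3H and at 10.13, 9.38, 9.18, 10.30 and 8.39 in C57Bl/6. High and low values are spread over the arrays of each label with no single array apart. In C3H the high values were on replicates 1, 3 and 4. In C57Bl/6 the 2 highest were on replicates 1 and 4. These inbred arrays were also the low ones for the collagen gene Col3a1, described below. In B6C3F1, by contrast, both genes were lowest on replicate 1. A link between these genes was not tested. The SDs of Zbtb16 were 0.90, 1.35 and 0.77, and the other probe set at the minimum gave 0.35, 0.83 and 0.51. Timp4, the inhibitor of metalloproteinases that is most abundant in heart, stood at 9.96, 11.31, 9.95, 10.50 and 10.28 in B6C3F1, at 9.92, 8.28, 11.53, 10.46 and 7.87 in C3H and at 11.70, 11.26, 9.58, 11.05 and 10.46 in C57Bl/6. The 2 lowest values were C3H replicates 5 and 2. Adm, the vasodilator peptide adrenomedullin, had SDs of 0.64, 0.77 and 0.75 on its brighter probe set but 0.34, 0.45 and 0.26 on the other. The same disagreement was seen in Cryl1 (0.97, 0.55 and 1.19 against 0.16, 0.31 and 0.34), Rusc2 (0.49, 0.75 and 0.89 against 0.13, 0.33 and 0.24) and Ank3, whose 3 other probe sets had SDs between 0.05 and 0.24. Further probe sets of Uqcr10 (0.31, 0.29 and 0.22, and 0.46, 0.43 and 0.33) and Pfdn5 (0.33, 0.26 and 0.31) also varied less. For these genes the size of the spread belongs to 1 probe set and not to the gene as a whole. The remaining members ran from Prrc2a (0.74, 0.70 and 0.70) to Casp12 (0.54, 0.49 and 0.47).

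Several collagen genes, with Nppb and Acta1, had larger SDs in both inbred strains than in the hybrid. Col3a1, a fibrillar collagen made by fibroblasts, stood at log2 13.15, 13.37, 13.62, 13.43 and 13.81 on the B6C3F1 arrays. It stood at 10.96, 13.38, 11.81, 10.77 and 13.95 in C3H and at 11.66, 13.25, 13.20, 12.05 and 13.62 in C57Bl/6. All hybrid mice lay near the upper inbred values, and C3H replicates 1, 3 and 4 and C57Bl/6 replicates 1 and 4 lay lower. The SDs were 0.25, 1.43 and 0.85, with an adjusted p of 0.209 against both inbred strains and 0.0744 against C3H (limma), so the difference in spread did not pass the threshold. A second probe set of the gene gave 0.35, 1.62 and 0.90. Col1a1, the main collagen of scar, had SDs of 0.09, 1.10 and 1.04 (hybrid minus inbred mean -0.80 ± 0.26 SE, adjusted p = 0.444, limma). A probe set of its partner Col1a2 gave 0.13, 0.85 and 0.76, among the smallest adjusted p values of that comparison (0.110, limma). The brighter probe set of Col1a2 had a smaller contrast, with SDs of 0.33, 0.57 and 0.48.

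Nppb, the B-type natriuretic peptide released by a loaded ventricle, followed a like course. It stood at 13.86, 14.25, 14.57, 14.74 and 14.49 in B6C3F1, at 13.42, 14.03, 11.93, 12.20 and 14.68 in C3H and at 13.22, 14.89, 14.04, 12.92 and 14.41 in C57Bl/6 (SDs 0.34, 1.17 and 0.82, adjusted p = 0.444, limma). C3H replicates 3 and 4 and C57Bl/6 replicates 1 and 4 were the low ones. Acta1, the skeletal actin re-expressed under load, had SDs of 0.35, 1.14 and 0.79, and Postn, the matrix protein periostin, 0.25, 0.92 and 0.70. Meox1, a homeobox gene of activated fibroblasts, had 0.20, 1.02 and 0.61 (adjusted p = 0.0744 against C3H, limma). Nppa, the atrial peptide, did not share the order, with 0.73, 0.68 and 0.23. Of 23 fibroblast and matrix genes at the minimum, 12 were in the top 10% of pooled SD, and their median SD was 0.25 in B6C3F1, 0.46 in C3H and 0.32 in C57Bl/6, beside 0.18, 0.21 and 0.18 over all genes. The SD was lowest in B6C3F1 for 13 of the 23 and highest in C3H for 13, where over all genes those shares were 41.1% and 46.0%. The pooled SDs of the list ran from 0.13 (Tcf21) to 0.97 (Col3a1). Of 12 ventricular stress genes, 6 were in the top 10% and the SD was highest in C3H for 9. As a group these did not follow the order of Nppb, since their median SD was 0.33 in B6C3F1, 0.47 in C3H and 0.26 in C57Bl/6, and the SD was lowest in C57Bl/6 for 6 and in B6C3F1 for 5.

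In C3H, macrophage genes were high and low on the same arrays as the matrix genes, and in C57Bl/6 partly so. The mean deviation of the 23 matrix genes from their strain mean was -0.33, 0.28, -0.03, -0.36 and 0.44 on the C3H arrays in replicate order, and that of 15 macrophage genes -0.20, 0.36, -0.09, -0.38 and 0.31. In C57Bl/6 the values were -0.38, 0.22, 0.02, -0.12 and 0.26 for matrix and -0.34, -0.07, 0.25, -0.17 and 0.33 for macrophage genes. In B6C3F1 they ran from -0.12 to 0.15 and from -0.11 to 0.15. C3H replicate 4, the lowest of its label in both lists, had the bright poly-A signal (log2 12.48). It also had the highest Gapdh ratio of its label (1.06). C3H replicate 1, also low in both, had 10.81 and 0.53. C57Bl/6 replicate 5, the highest of its label in both, had the dim poly-A signal (9.25). The part of these measures in the list values was not tested. The SD was lowest in B6C3F1 for 11 of the 15 macrophage genes and highest in C3H for 12 (41.1% and 46.0% of all genes), as for Cd68, a lysosomal marker (0.16, 0.67 and 0.40), and Tyrobp, a signalling adaptor (0.29, 0.65 and 0.37). Mybpc2 and Casq1, better known from fast skeletal muscle, also had their lowest SD in B6C3F1 (0.28, 0.91 and 0.72, and 0.33, 0.84 and 0.98). The 4 defining skeletal muscle markers (Myh4, Tnnt3, Actn3 and Mylpf) had mean log2 signals between 4.34 and 5.68, and their summed linear signal ran from 167 to 238 in B6C3F1, 62.3 to 249.5 in C3H and 103 to 197 in C57Bl/6. The part of macrophages in the matrix values was not tested.

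**Figure D4:**
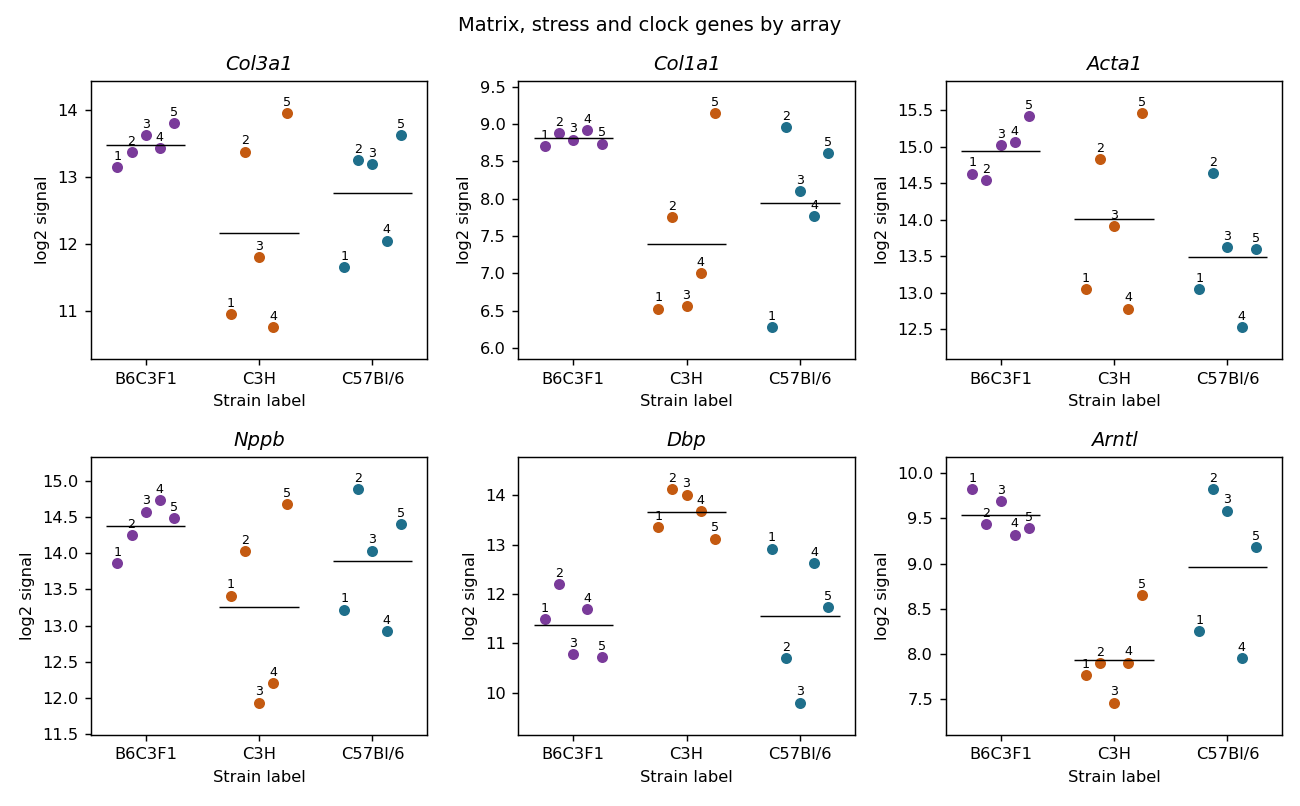
Log2 signal of 6 genes on each array (points, with replicate numbers) by strain label; lines are means of 5 arrays. Col3a1, Col1a1, Acta1 and Nppb lie close together in B6C3F1 and wide apart in both inbred strains, and Dbp and Arntl are widest apart in C57Bl/6, in opposite directions.

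Genes of the circadian clock varied most in C57Bl/6. The clock is a loop in which Arntl (BMAL1) and Clock drive their own repressors, among them Per1 and Nr1d1, and output factors such as Dbp, so that levels follow the time of day. The mice were kept in 12 hours of light and 12 of dark, and the hour of death is not stated in the labels. Dbp stood at log2 12.92, 10.70, 9.80, 12.62 and 11.73 on the C57Bl/6 arrays, at 11.49, 12.21, 10.78, 11.69 and 10.71 in B6C3F1 and at 13.36, 14.13, 14.01, 13.68 and 13.12 in C3H. Replicates 1 and 4 of C57Bl/6 were high and 2 and 3 low. Arntl ran the other way there, at 8.25, 9.82, 9.59, 7.95 and 9.19, and Nr1d1 ran with Dbp (9.69, 8.37, 8.16, 9.95 and 9.24). The SDs of Dbp were 0.63 in B6C3F1, 0.43 in C3H and 1.31 in C57Bl/6 (C3H minus C57Bl/6 -0.79 ± 0.24 SE, adjusted p = 0.328, limma), and its second probe set gave 0.58, 0.44 and 1.23. Of 13 clock genes at the minimum, 8 were in the top 10%, their median pooled SD was 0.40, and the SD was highest in C57Bl/6 for 8, as it was for 28.7% of all genes.

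Per1 was the clock gene that varied in every label, at 7.67, 8.86, 7.04, 8.66 and 8.69 in B6C3F1, 7.31, 8.09, 9.17, 8.40 and 8.22 in C3H and 9.54, 8.44, 8.29, 9.16 and 8.99 in C57Bl/6. Glucocorticoids induce it too. One of its listed promoters (RefSeq, GRCm38.p6, plus strand, chr11:69098699-69098948) is shown because it was the only one among the 25 most variable genes to hold the clock E-box CACGTG, marked in capitals at position -166 from the start. That motif was in 6.9% of all listed genes, in 10.5% of those at the signal minimum and in 2 of 11 matched clock genes (18.2%). The listed promoters of Dbp and Nr1d1 did not hold it.
Per1: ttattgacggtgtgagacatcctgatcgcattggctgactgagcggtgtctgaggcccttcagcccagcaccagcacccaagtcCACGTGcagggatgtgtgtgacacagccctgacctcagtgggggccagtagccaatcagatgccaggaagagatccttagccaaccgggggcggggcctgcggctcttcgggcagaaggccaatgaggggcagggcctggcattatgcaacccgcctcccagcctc
The motif TGACGTCA, the glucocorticoid motif ACANNNTGT and the serum response CArG box were in none of the 24 promoters of the 19 matched genes. Their shares were 1.8%, 6.8% and 1.6% of all listed genes, and 3.2%, 4.2% and 1.5% of those at the signal minimum. At such shares, 19 genes are too few to read a lack from. Zbtb16 had no listed promoter and was not searched.

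Genes that respond within minutes or hours were variable as groups. Of 22 immediate early genes, which are switched on by growth factors or stretch without new protein, 11 were in the top 10% of pooled SD (median 0.37). Within B6C3F1, 17 of the 22 were highest on replicate 5, where 27.3% of all genes were. Fos, a subunit of the AP-1 factor, stood at 10.03, 8.42, 10.41, 8.47 and 11.30 there, at 10.54, 9.11, 10.63, 9.54 and 10.43 in C3H and between 9.11 and 9.63 in C57Bl/6 (SDs 1.25, 0.68 and 0.21, adjusted p = 0.350 for B6C3F1 minus C57Bl/6, limma). The orphan receptor gene Nr4a1 had SDs of 0.73, 1.18 and 0.37. Of 15 glucocorticoid-responsive genes, 10 were in the top 10% (median 0.43), including Zbtb16, Per1, Mt2, a metallothionein (0.61, 0.73 and 0.29), and the cell cycle inhibitor Cdkn1a (0.38, 0.30 and 0.79). Tsc22d3 and Sgk1, further targets of the hormone receptor, were not (pooled SDs 0.27 and 0.22).

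Immune and mesothelial genes stood high or low on particular mice. Of 14 interferon-induced genes, 9 were in the top 10% (median 0.42), with the SD lowest in B6C3F1 for 10 (41.1% of all genes). Their mean deviation was lowest on C57Bl/6 replicate 1 (-0.57) and highest on C3H replicate 5 (0.46). Ifit1, an antiviral RNA-binding protein, stood at 7.26, 9.09, 8.56, 8.05 and 8.67 in C57Bl/6. The 4 MHC class II genes deviated by -0.60 on B6C3F1 replicate 5, by -0.59 on C3H replicate 1 and by 0.59 on C3H replicate 5. Of 6 mesothelial genes, which mark the outer lining of the heart, 4 were in the top 10% (median 0.50). All 6 were highest on B6C3F1 replicate 1 within that label (mean deviation 0.53), where 17.5% of all genes were. The lowest mean deviation was on C3H replicate 4 (-0.49). Upk3b stood at 10.12, 11.38, 11.36, 9.15 and 10.88 in C3H.

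**Figure D5:**
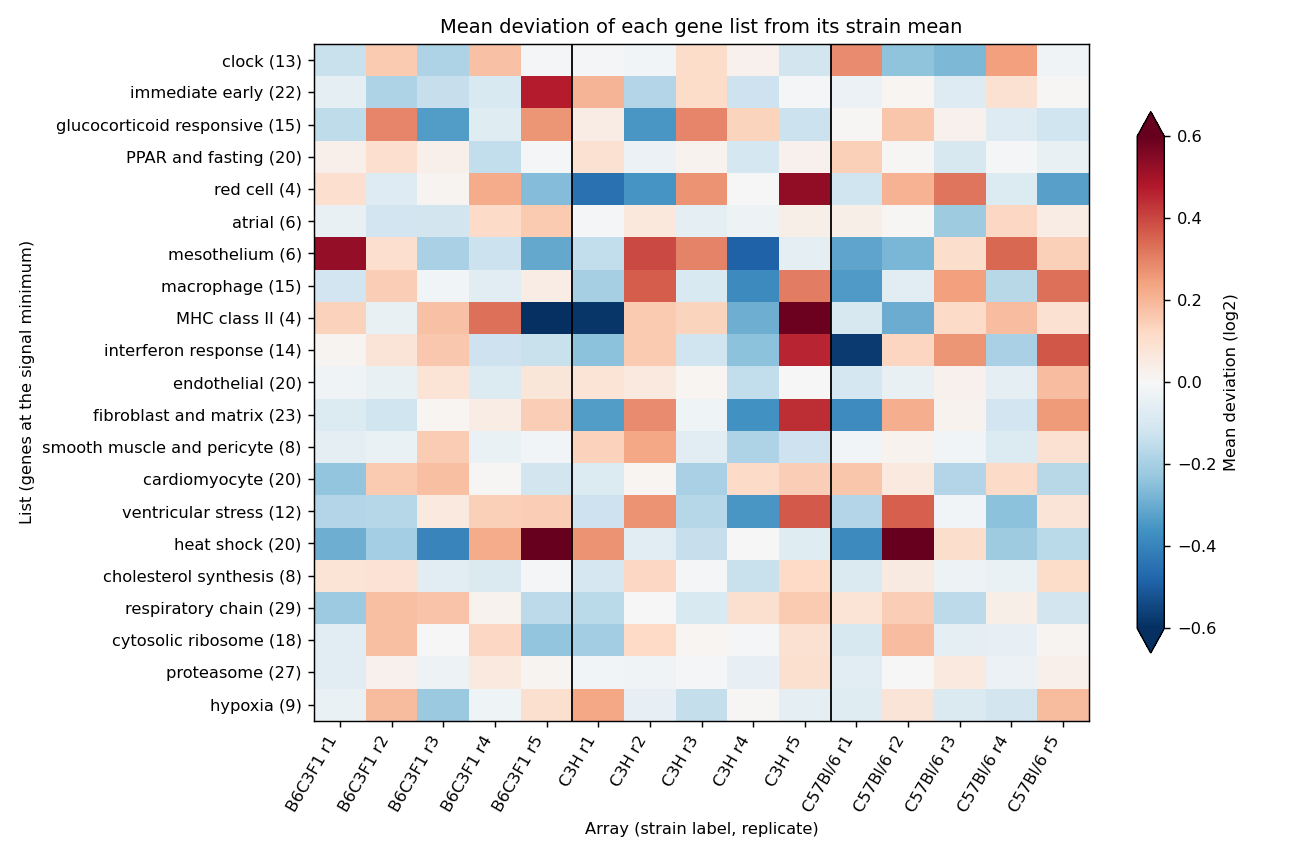
Mean deviation from the strain mean, in log2 units, of each gene list (rows, with the number of genes at the signal minimum) on each array (columns, r is replicate). The heat shock row is darkest red on B6C3F1 replicate 5 (0.68) and C57Bl/6 replicate 2 (0.65), and the proteasome row stays pale (-0.07 to 0.10).

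Contractile and housekeeping genes had small SDs, but many are bright, and SDs fall with signal. Of 20 cardiomyocyte genes, 1 was in the top 10% (Tcap, SDs 0.38, 0.17 and 0.60), and the median pooled SD was 0.19. Ranked among genes whose mean log2 signal was within 0.5, 5 of the 20 were in the top 10% and the median percentile was 59.4. Myh6, the main adult myosin heavy chain, had SDs of 0.24, 0.21 and 0.18, and Myh7, the slow form, 0.31, 0.41 and 0.21. Respiratory chain genes had a median of 0.17 with 2 of 29 in the top 10%, cytosolic ribosomal genes 0.18 with 3 of 18, and proteasome genes 0.13 with 0 of 27. Among genes of like signal the median percentiles of these 3 lists were 54.5, 66.1 and 27.3, so that the proteasome genes were the only ones of the 4 lists below the middle. The hybrid was not the steadiest label in these lists. The SD was highest in B6C3F1 for 20 of 29 respiratory chain, 10 of 18 ribosomal, 9 of 20 cardiomyocyte and 8 of 27 proteasome genes. Over all 8163 genes it was highest there for 2063. It was lowest in B6C3F1 for 3, 3, 2 and 9 genes of these lists, and for 3354 of all genes. Genes listed for the response to fasting were divided, since the median was 0.18 but 5 of 20, among them Txnip, Pdk4 and Angptl4, were in the top 10%. The 5 genes of smallest pooled SD were Tug1, a long non-coding RNA, Arpp19, a phosphatase regulator, Srsf11, a splicing factor, Ciao1, an iron-sulphur cluster assembly factor, and Iftap, each at 0.05 or 0.06. Tug1 lay between 10.59 and 10.78 on all 15 arrays.

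Some genes varied mainly in 1 label. Corin, the protease that activates natriuretic peptide in the heart, stood at 13.21, 12.07, 12.76, 12.73 and 11.36 in C3H (SD 0.72), against SDs of 0.13 in B6C3F1 and 0.16 in C57Bl/6. Hrc, a calcium-binding protein of the sarcoplasmic reticulum, stood at 14.08, 15.22, 14.48, 14.18 and 13.85 in B6C3F1 (SD 0.53 against 0.12 and 0.11). Emp1, a membrane protein, had an SD of 0.53 in C57Bl/6 against 0.11 and 0.21. Pabpn1, a nuclear poly-A binding protein, varied in both other labels but not in C3H, and stood at 12.81, 10.52, 9.77, 9.82 and 12.68 in B6C3F1 and at 12.78 to 13.11 in C3H (SDs 1.51 and 0.16, adjusted p = 0.116, limma), but a second probe set gave 0.35 and 0.03. These genes were picked for the contrast of their SDs, and none of the 4 passed a test of it.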

How the data were processed

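The log2 signals were deposited in the authors' value table of the series, and MAS5 is named in the submitters' processing notes; its version and the arrays' hybridisation batches are not given in the sources used here. Linear values recovered from the table have a 2% trimmed mean near 500 on every array. No further normalization was applied. Probe sets with 1 gene symbol in the platform annotation (34940 of 45032) were named from it, 932 had several symbols and 9160 none. For each gene the brightest probe set with a mean log2 signal of 8 or more was used. The pooled SD combines the 3 strain SDs.

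Array deviations were compared by two-sided exact permutation tests. Deviations within a strain share its mean and are not fully independent. Spread was tested with limma 3.58.1 in R 4.3.3 on absolute deviations from the strain mean, scaled for group size, with Benjamini-Hochberg adjustment over 13226 probe sets. The test was tried on simulated data with 200 changed probe sets. P-values concern differences between labels in the spread of their arrays. That spread mixes the mouse with the tissue piece, the labelling and the hybridisation.

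Members and lists were chosen with earlier results of these data known. Named genes were the 25 with the highest smallest strain SD, those of smallest p in each spread comparison, up to 4 of largest pooled SD per list, the 5 steadiest, those variable in 1 label, and Nppa, Nppb, Myh6, Myh7, Dbp, Arntl and Gapdh, of which Gapdh had no single-symbol probe set at the minimum outside the controls. Others, such as Hspa8, Hspd1, Hsph1, Hsp90aa1, Rpl37a, Casq1, Tcf21, Tsc22d3 and Sgk1, were chosen after their values were seen. Alternatives covered the pseudocount, signal minimum, scaling, probe set, test, replicate block and each array left out.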

Additional observations from a re-analysis of the deposited data

Results flagged for a closer look

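In 36 cases 1 array lay far from the other 4 of its label, by the gap to its nearest neighbour over the whole range (above Dixon's 95% critical value). Of these, 32 concern gene levels among 495 groups of 5 (6.5%). Many of these genes were chosen for their spread, and all share the same arrays. The 6.5% therefore cannot be compared with a chance rate. The other 4 are measures of the arrays: the deviation of B6C3F1 replicate 5 (0.854), the Gapdh ratio of C3H replicate 4 (0.74), and the poly-A signal of C3H replicate 4 (0.903) and C57Bl/6 replicate 5 (0.928).

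Of the gene cases, 7 fell on each of B6C3F1 replicate 5, C3H replicate 1 and C57Bl/6 replicate 2. On B6C3F1 replicate 5 they were Ank3 (0.897), Cox8b (0.822), Snrnp27 (0.724), Rpl37a (0.724), Nr1d1 (0.744), Rps15 (0.714) and Pecam1 (0.794). On C3H replicate 1 they were Ank3 (0.74), Cox8b (0.872), Rpl37a (0.756), Nfe2l1 (0.774), Rps15 (0.738), Pecam1 (0.724) and Cox7a1 (0.76). On C57Bl/6 replicate 2 they were Hspa1b (0.806), Rpl37a (0.754), Nfe2l1 (0.769), Itgb1 (0.815), Rpl27 (0.857), Pecam1 (0.802) and Arpp19 (0.731).

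The remaining 11 were Hspa8 (low, 0.768) and Kcnj5 (high, 0.861) on B6C3F1 replicate 1, Ociad2 (low, 0.767) and Ebpl (high, 0.777) on B6C3F1 replicate 2, Psmb2 on B6C3F1 replicate 3 (high, 0.804), Rps6 (high, 0.767) and Upk1b (high, 0.917) on C3H replicate 2, Cnp on C3H replicate 4 (low, 0.713), Aldh1a2 on C57Bl/6 replicate 1 (low, 0.719), and Hrc (low, 0.717) and Corin (high, 0.756) on C57Bl/6 replicate 3.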

How the results depend on the processing

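The mean deviation kept B6C3F1 below C3H and below both inbred strains together under each alternative run, but the calls rest on few arrays. With each array left out in turn, the hybrid differed from both inbred strains by -0.0565 to -0.0227, from C3H by -0.0720 to -0.0327 and from C57Bl/6 by -0.0410 to 0.0019, and C3H from C57Bl/6 by 0.0160 to 0.0492. The probe sets that passed the spread test numbered 0 to 9 for the hybrid against both, 0 to 127 against C3H, 0 to 14 against C57Bl/6 and 0 to 57 for C3H against C57Bl/6. Genes with an SD of 0.5 or more in every strain numbered 11 to 22, the lowest count being without C3H replicate 1, and the median SDs ran from 0.155 to 0.186 in B6C3F1, 0.193 to 0.228 in C3H and 0.169 to 0.196 in C57Bl/6.

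With no signal minimum the median SDs were 0.592 in B6C3F1, 0.597 in C3H and 0.609 in C57Bl/6, C3H differed from C57Bl/6 by -0.0155, the spread test passed 64, 86, 49 and 46 probe sets in the order above (57 of the 64 higher in the hybrid), and 5588 genes reached the SD limit. That count was 47 at a minimum of 7, 11 at 9 and 38 with each gene's most variable probe set. The 3 calls of C3H against C57Bl/6 became 5 at a minimum of 7, and 1 at a minimum of 9, with a minimum in each strain, a pseudocount of 16 or 64, quantile normalization, centring on array medians, the Gapdh ratio regressed out, no intensity trend or robust eBayes. They became 0 with the poly-A signal regressed out, deviations from the strain median, or squared deviations. Centring on array medians gave 2 calls for B6C3F1 against C57Bl/6 and a C57Bl/6 median SD of 0.246. With the poly-A signal regressed out, B6C3F1 differed from C57Bl/6 by 0.000956 and 2 probe sets passed against both inbred strains. Of alternatives chosen after seeing the data, leaving out B6C3F1 replicate 5, C3H replicate 1 and C57Bl/6 replicate 2 together gave hybrid differences of -0.0393, -0.0554 and -0.0232 and 12, 90, 8 and 61 calls, and regressing out Cox8b gave 0 calls for C3H against C57Bl/6. Leaving out the heat shock genes changed no call of array deviation. The cause of these changes was not tested.

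Replicate numbers are shared between labels. The deviations of same-numbered arrays had correlations of -0.161 to 0.301, over 0.1 in 4 of 15 pairs. Differently numbered arrays were not compared, and whether a number marks anything shared was not tested. With a replicate block, 6 probe sets passed for B6C3F1 against C3H, 0 in the other hybrid comparisons and 3 for C3H against C57Bl/6.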

Other observations

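Atrial, red cell and hypoxia genes were also measured. Of 9 hypoxia genes at the minimum, 3 were in the top 10% of pooled SD (median 0.31). Of 6 atrial genes 3 were, and of 4 red cell genes 2 were, with the SD highest in C3H for 3 of the 6 and 4 of the 4, where 46.0% of all genes had it highest. Endothelial genes were closer to the background, with 4 of 20 in the top 10% and a median pooled SD of 0.28 beside 0.21 for all genes. Of 8 cholesterol synthesis genes, 2 were in the top 10% (median 0.21), and the SD was highest in C3H for 7.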
